A study of Homo sapiens with 60 samples.

Results

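The comparison described here sets HCT116 spheroids in Medium 2 against HCT116 spheroids in Medium 1, all exposed to kynurenic acid. Its members are the 10 libraries, 5 per medium, that the columns of the count table name for kynurenic acid, out of 60 libraries in 12 groups. HCT116 is an established human colorectal cancer cell line, and a spheroid is a ball of such cells grown without attachment, here in agarose microwells. Both groups grew in DMEM of high glucose content with serum, antibiotics and non-essential amino acids, and both received 1 µM kynurenic acid from day 1 to day 8 after seeding. The study also had groups that were untreated or received butyrate, hemin, kynurenine, or hemin with kynurenine, each in both media. Its design text says that spheroids were sampled at once or kept in a nutrient-deprived medium for 3 h first, which is the question that the media address. The titles call the media Medium 1 and Medium 2 without saying which is the deprived one, so the media are called by number here. All libraries come from 1 cell line, which limits what they can stand for.

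Kynurenic acid is made from the tryptophan breakdown product kynurenine by aminotransferases. It is known as a ligand of the aryl hydrocarbon receptor, a transcription factor that switches on drug-metabolising enzymes such as CYP1A1, and of the membrane receptor GPR35. Cells that lose amino acids or glucose are known to slow translation through the kinases of the integrated stress response, which raise the transcription factor ATF4, and to restrain the growth kinase mTORC1. Misfolded protein in the endoplasmic reticulum triggers the unfolded protein response, in which XBP1 and ATF6 raise chaperones, and low oxygen stabilises the hypoxia-inducible factors. Immediate early genes such as EGR1 and JUN answer growth factor and stress signals within minutes, partly through serum response factor.

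The promoters of 4 genes that the results below turn on show which of these control elements lie at their starts. The sequences are from RefSeq on GRCh38.p14, from 250 bases before to 50 bases after each gene start, written 5′ to 3′ on the gene's strand, and capitals mark the motif named for each gene. HERPUD1 (chr16:56931892-56932191, plus strand) has an endoplasmic reticulum stress element of the second kind, ATTGG and CCACG with 1 free base between them, that starts 117 bases before the gene start. HSPA5 (chr9:125241294-125241593, minus strand) has the first kind, CCAAT and CCACG with 9 free bases between them, starting 66 bases before it. ANKRD37 (chr4:185396591-185396890, plus strand) has the core of the hypoxia response element, ACGTG, and EGR1 (chr5:138465229-138465528, plus strand) has the CArG box that serum response factor is known to bind.
HERPUD1: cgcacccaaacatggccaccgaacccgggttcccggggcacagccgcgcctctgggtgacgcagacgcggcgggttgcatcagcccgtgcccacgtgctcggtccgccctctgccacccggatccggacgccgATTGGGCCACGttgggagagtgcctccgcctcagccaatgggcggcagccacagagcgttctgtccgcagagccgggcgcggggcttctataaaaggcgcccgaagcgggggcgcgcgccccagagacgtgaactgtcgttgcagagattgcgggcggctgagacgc
HSPA5: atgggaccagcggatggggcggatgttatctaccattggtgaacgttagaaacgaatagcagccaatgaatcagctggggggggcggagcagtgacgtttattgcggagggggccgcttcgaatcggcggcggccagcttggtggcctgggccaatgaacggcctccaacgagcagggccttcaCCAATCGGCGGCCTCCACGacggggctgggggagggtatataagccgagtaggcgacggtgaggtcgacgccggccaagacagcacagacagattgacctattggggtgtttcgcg
ANKRD37: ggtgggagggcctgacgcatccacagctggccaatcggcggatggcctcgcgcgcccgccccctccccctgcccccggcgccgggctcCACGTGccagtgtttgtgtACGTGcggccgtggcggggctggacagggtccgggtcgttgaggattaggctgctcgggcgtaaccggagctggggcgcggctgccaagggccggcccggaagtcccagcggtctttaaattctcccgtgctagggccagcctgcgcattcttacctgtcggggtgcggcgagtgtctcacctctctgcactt
EGR1: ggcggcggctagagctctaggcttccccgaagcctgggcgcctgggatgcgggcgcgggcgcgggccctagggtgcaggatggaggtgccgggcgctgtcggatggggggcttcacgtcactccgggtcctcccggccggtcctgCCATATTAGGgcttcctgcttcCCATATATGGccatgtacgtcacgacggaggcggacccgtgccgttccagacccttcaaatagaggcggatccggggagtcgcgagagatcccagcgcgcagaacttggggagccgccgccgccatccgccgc
All motifs were searched on both strands. In HERPUD1 the last bases of the element overlap a hypoxia core on the other strand, and in ANKRD37 the capitals hold 3 hits, of which 1 pair overlaps as a palindrome. Of 27305 promoters in the RefSeq table, 22 (0.0806%) held the first kind of stress element, 15 (0.0549%) the second kind, 5900 (21.6%) the hypoxia core and 351 (1.29%) a CArG box. Among 18 unfolded protein response promoters, 5 held the first kind (CALR, CRELD2, HSP90B1, HSPA5 and XBP1) and 3 the second kind (HERPUD1, HYOU1 and SDF2L1). The hypoxia core was in 9 of 16 promoters of hypoxia-inducible factor targets, against 27.4% of promoters of tested genes. It was also in 8 of 18 unfolded protein response promoters and in 30.4% of promoters of genes higher in Medium 2. The string searched for the ATF4 element, TGATGNAAT, allows no other last base. It was in 0 of 23 integrated stress response promoters and in 0.4% of promoters of tested genes. At that share, 0 of 23 says little about ATF4 sites. The aryl hydrocarbon receptor element, TNGCGTG, was in 3 of 8 target promoters (AHRR, NFE2L2 and NQO1), against 7.74% of promoters of tested genes. It was not in the stretch searched for CYP1A1, and sites further from the gene start were not searched. These matches describe letters, not binding.

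The libraries held 1486159 to 2159361 estimated counts in Medium 2 and 1722696 to 2123366 in Medium 1, and 11298 of 29744 genes were tested. The median correlation of library pairs on the log2 scale was 0.960 within each medium and 0.946 between media. The TMM scaling factors, which adjust for composition, were 0.918 to 0.974 in Medium 2 and 1.01 to 1.06 in Medium 1, and 13333 to 13968 against 13874 to 14456 genes were detected. On the plate, all Medium 2 libraries lay in column 7 and all Medium 1 libraries in columns 3 and 4, so medium and plate column cannot be told apart. The summed level of 10 epithelial markers was 1256 to 1476 CPM (counts scaled to library size) in Medium 2 and 1292 to 1435 CPM in Medium 1, although CDH17, VIL1 and CEACAM5, markers of differentiated gut epithelium, were at 0 in all 10 libraries. Fibroblast markers summed to 7.16 to 10.5 against 10.2 to 19.7 CPM, with ACTA2 at a mean of 4.75 against 4.98 CPM, COL1A1 at 3.65 against 8.87 CPM, and COL1A2, COL3A1 and LUM at 0 throughout. Immune markers reached at most 1.43 CPM in Medium 2 and 3.48 CPM in Medium 1. In bulk RNA such as this, fewer cells of a kind and less RNA per cell cannot be told apart.

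Under kynurenic acid, spheroids in Medium 2 had higher RNA of 43 of 79 ribosomal protein genes, 10 of 28 integrated stress response genes and 9 of 26 immediate early genes, and lower RNA of 15 of 16 transcripts of duplicated gene families. These lists were chosen with earlier results of these data known. By the quasi-likelihood test of edgeR, adjusted after Benjamini and Hochberg, at a threshold of 0.05, 486 genes (4.3% of those tested) were higher in Medium 2 and 481 (4.26%) were lower, 967 (8.56%) in all. All 5 Medium 2 libraries lay above all 5 Medium 1 libraries for 516 genes (4.57%) and below them for 421 (3.73%). Changes beyond 2-fold were mostly falls, with 50 genes higher and 199 lower among those that passed. The median log2 fold change of all tested genes was 0.00599, and the median standard error was 0.212. Without the Medium 2 library of well G7 the higher count was 307, and without that of well D7 it was 313. In the text below, a log2 fold change is Medium 2 over Medium 1, ± gives its standard error, and levels are CPM per library after TMM scaling.

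Several chaperones and helpers of the endoplasmic reticulum rose in Medium 2. HERPUD1, a membrane protein that helps to clear misfolded proteins, had the smallest adjusted p of all genes. It stood at 524, 492, 591, 527 and 428 CPM in the Medium 2 libraries, against 129, 84.8, 86.4, 96.6 and 152 CPM in the Medium 1 libraries, so that the lowest Medium 2 library was well above the highest Medium 1 library. The difference was 2.22 ± 0.17 on the log2 scale with an adjusted p of 1.01e-15. DNAJB9, a co-chaperone of the endoplasmic reticulum, had 67.4, 44.6, 53, 52.3 and 40.7 CPM in Medium 2 and 17.9, 9.83, 7.51, 14.6 and 21.4 CPM in Medium 1, a rise of 1.86 ± 0.24 (adjusted p = 1.98e-07). Both groups were again apart. HSPA5, the main chaperone of this compartment, moved less, with 1395, 1422, 1396, 1374 and 1742 CPM in Medium 2 against 965, 1059, 1015, 959 and 866 CPM in Medium 1. Its rise was 0.59 ± 0.11 (adjusted p = 0.000111), and its highest Medium 2 library, G7, stood apart from the other 4. The transcription factor XBP1 rose by 0.84 ± 0.14 (adjusted p = 1.47e-05) and SDF2L1, a chaperone partner, by 0.61 (adjusted p = 0.0362), a call that SDF2L1 lost in 9 of 17 other fits. Of 18 tested genes of the unfolded protein response these 5 rose, against 4.3% of all tested genes, and none fell. The median log2 fold change of the list was 0.25. Of the 8 promoters with an element of either kind, named above, those of HERPUD1, HSPA5, XBP1 and SDF2L1 belong to genes that rose.

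A number of ATF4 targets rose in the same libraries. DDIT3, the stress transcription factor also called CHOP, had 80.6, 69.6, 75.9, 67.5 and 59.7 CPM in Medium 2 and 13.4, 9.83, 11.3, 14.6 and 16.2 CPM in Medium 1. The difference was 2.43 ± 0.21 (adjusted p = 5.14e-13) with no overlap of libraries, though the DDIT3 locus overlaps MARS1 and reads may be shared. STC2, a secreted glycoprotein of stressed cells, had 179, 172, 199, 186 and 179 CPM against 53.2, 68.3, 47.2, 69.7 and 62.6 CPM in Medium 2 and Medium 1, a rise of 1.60 ± 0.17 (adjusted p = 4.65e-10). CHAC1, which breaks down glutathione, had 22.3, 19.7, 26.5, 23.5 and 37.2 CPM in Medium 2 against 9.45, 3.62, 3.22, 5.01 and 9.27 CPM in Medium 1, and rose by 2.08 ± 0.34 (adjusted p = 1.78e-05). All 3 genes were separated by medium without exception. Of 28 tested genes in the integrated stress response list, 10 rose, against 4.3% of all tested genes, and none fell. All 28 had a log2 fold change above 0, with a median of 0.39. The others that rose were the transcription factors ATF5 (1.04), ATF3 (0.93) and CEBPB (0.64), the mTORC1 restrainer SESN2 (0.85), the pseudokinase TRIB3 (0.61), the mitochondrial folate enzyme MTHFD2 (0.54) and the amino acid transporter SLC38A2 (0.31). ATF4 itself, which is known to be controlled mainly at translation, had a log2 fold change of 0.23 (adjusted p = 0.466). ASNS, the asparagine synthetase, was at 119 ± 16.5 CPM in Medium 2 and 87.6 ± 8.23 CPM in Medium 1 (SD, n = 5 each) and did not pass, with a log2 fold change of 0.44 and an adjusted p of 0.258, but passed with an adjusted p of 0.0144 when only these 2 groups were fitted.

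DDIT4, an inhibitor of mTORC1 that both stress and hypoxia are known to induce, had 302, 360.4, 314, 253 and 160.2 CPM in Medium 2 and 47.8, 45, 42.9, 56 and 69 CPM in Medium 1. The rise of 2.41 ± 0.24 (adjusted p = 2.47e-11) held in every library, with the lowest Medium 2 level in well G7. DDIT4 and SESN2 were the 2 of 13 tested mTORC1 inhibitors that rose, and the list's median of 0.01 lay at that of all genes. Of 17 tested amino acid transporters SLC38A2 alone rose. Of 19 aminoacyl-tRNA synthetases, which charge tRNAs, none rose and NARS fell (-0.42), a call lost in 7 of 17 other fits. Beside the 4.3% of all tested genes that rose and the 4.26% that fell, these counts say little about either family.

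**Figure D1:**
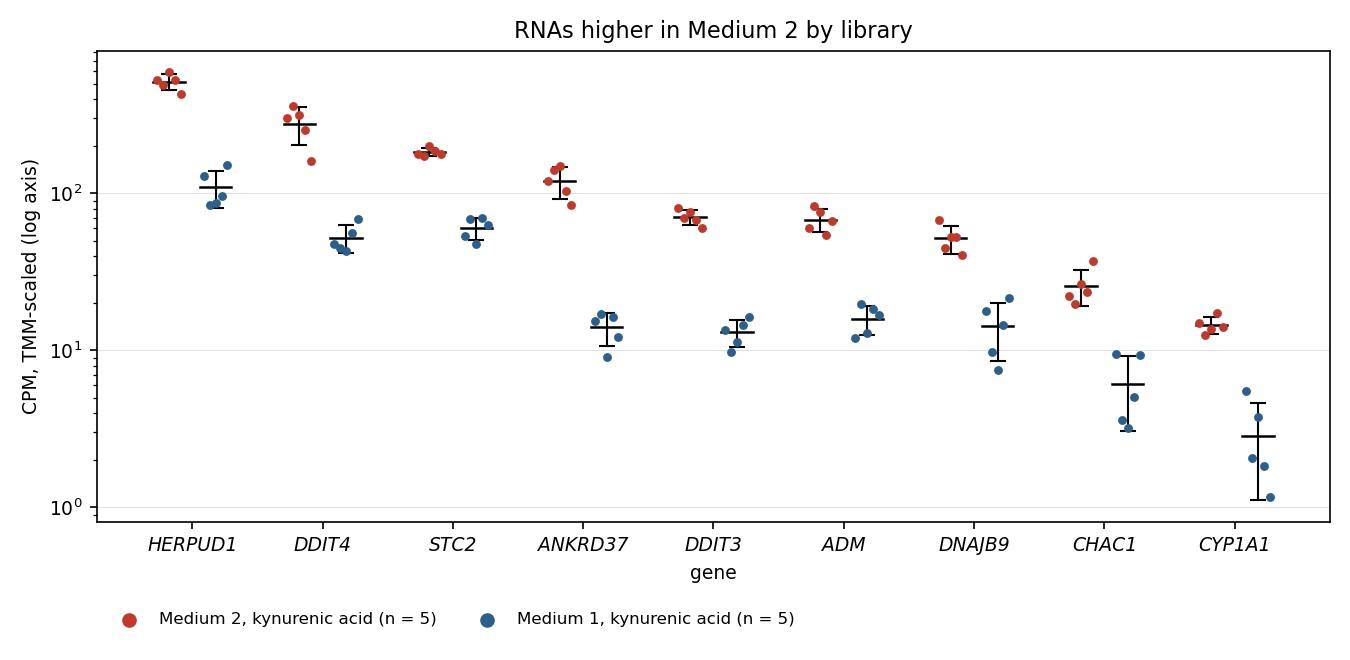
CPM on a log axis for 9 genes that rose in Medium 2, with a point per library, red for Medium 2 and blue for Medium 1, and black bars for mean ± SD (n = 5). No red point falls among the blue points of the same gene, and HERPUD1 lies highest on the axis, at 428 to 591 CPM in Medium 2.

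Some targets of the hypoxia-inducible factors were among the largest rises. ANKRD37, an ankyrin repeat protein and hypoxia marker, had the largest named rise, with 119, 141, 149, 104 and 83.8 CPM in Medium 2 against 15.4, 17.1, 9.12, 16.4 and 12.2 CPM in Medium 1. The difference of 3.07 ± 0.29 (adjusted p = 1.31e-11) was seen in all libraries, but ANKRD37 overlaps UFSP2 and LRP2BP and its counts are uncertain to that extent. ADM, the vasodilator peptide adrenomedullin, had 60.5, 82.7, 75.9, 53.9 and 66.8 CPM in Medium 2 and 11.9, 19.7, 12.9, 18.2 and 16.8 CPM in Medium 1, and rose by 2.08 ± 0.33 (adjusted p = 1.01e-05). ANGPTL4, an inhibitor of lipoprotein lipase, rose by 1.76 ± 0.40 (adjusted p = 0.00232), the circadian repressor BHLHE40 by 1.5, the lipid droplet protein HILPDA by 1.28 and the vessel growth factor VEGFA by 0.78. The histone demethylase KDM4B, on the same list, fell (-0.99, adjusted p = 0.00297). The list was thus uneven, with 6 of 20 tested members higher, 1 lower and a median of 0.08. Over all tested genes the shares were 4.3% higher and 4.26% lower. Glycolysis, which the same factors are known to raise, had 3 of 24 tested genes higher, namely GAPDH (0.58), TPI1 (0.39) and LDHB (0.21), and none of the 3 passed with another scaling (RLE), after thinning to equal depth, or without the Medium 1 library E3 or the Medium 2 libraries D7, E7, F7 or G7.

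Several immediate early genes rose in Medium 2 under kynurenic acid, with 9 of 26 tested members higher and 1 lower. Over all tested genes 4.3% were higher and 4.26% lower. JUN, a subunit of the AP-1 factor, had 75.9, 74.8, 101, 84.2 and 81.3 CPM in Medium 2 and 37.8, 33.6, 42.9, 42.8 and 46.9 CPM in Medium 1, a rise of 1.03 ± 0.17 (adjusted p = 1.7e-05). EGR1, a zinc finger factor with the CArG boxes printed above, had 179, 186, 189.7, 171 and 163 CPM in Medium 2 against 98.5, 132, 104, 115 and 103 CPM in Medium 1. It rose by 0.68 ± 0.16 (adjusted p = 0.00438), and no library crossed over for either gene. JUNB (0.99), BTG2 (1.08), ATF3 (0.93), NR4A2 (0.75), IER3 (0.55), KLF6 (0.51) and MCL1 (0.48) also rose, while CYR61, a matrix-bound growth regulator, fell (-0.90, adjusted p = 0.0385). The median of the list was 0.26. MYC, on this list and the Wnt list, was spread widely, with 80.6, 53.8, 81.6, 73.2 and 40.2 CPM in Medium 2 against 88.6, 20.2, 31.1, 61.5 and 100.3 CPM in Medium 1. Its groups overlapped fully, its log2 fold change was 0.13 (adjusted p = 0.854), and it turned to -0.09 without the Medium 1 library F3 and to -0.03 without G3.

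Feedback genes of the Ras-ERK pathway included SPRY1, a brake on receptor tyrosine kinases, with 8.49, 13.1, 7.87, 12 and 6.53 CPM in Medium 2 and 4.48, 0.517, 2.15, 2.73 and 1.16 CPM in Medium 1. Its rise was 2.06 ± 0.49 (adjusted p = 0.00435) at a low level. The ERK phosphatases DUSP6 and DUSP5 each rose by 0.57, SPRED1 by 0.51, IER3 by 0.55 and PHLDA1 by 0.36, while NF1, the Ras GTPase-activating protein, fell (-1.20, adjusted p = 0.0308). In all 6 of 21 tested genes rose, 1 fell, and the median was 0.15, beside 4.3% of all tested genes that rose and 4.26% that fell.

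Other stress and cytokine programs had a minority of genes higher, beside 4.3% of all tested genes higher and 4.26% lower. The share higher was 32% of p53 targets, 33.3% of interferon response genes and 25% of the NF-kB list. It was 10% of FOXO and MondoA targets, 11.8% of heat shock genes and 10.5% of NRF2 targets. Of 25 tested p53 targets, 8 rose and none fell, with a median of 0.18, led by the secreted stress factor GDF15 with 388, 408, 424, 365 and 404 CPM in Medium 2 and 184, 197, 141, 153 and 144 CPM in Medium 1 (1.28 ± 0.15, adjusted p = 1.25e-08). MDM2, which degrades p53, rose by 0.70 (adjusted p = 9.54e-06), the death gene BBC3 by 0.68 and the cell cycle inhibitor CDKN1A by 0.52. Of 24 tested interferon response genes, 8 rose and 1 fell, with a median of 0.31. IFIT3, an antiviral RNA-binding protein, had 236, 248, 261, 247 and 249 CPM in Medium 2 against 126, 113, 141, 144 and 151 CPM in Medium 1 (0.88 ± 0.12, adjusted p = 6.69e-07), and IFIT1, IFIT2 and IFIT5 rose by 0.77, 0.64 and 0.82. STAT2, a factor that carries interferon signals, fell (-1.02, adjusted p = 0.014). In the NF-kB list 4 of 16 rose, the chemokines IL8 (1.16) and CXCL1 (0.87), the survival factor BIRC3 (0.67) and IER3, none fell, and the median was 0.14. Among 20 tested starvation targets of FOXO and MondoA the cell cycle brakes CCNG2 (1.35) and CDKN1B (0.92) rose and RBL2 fell (-0.67), while TXNIP was at 0 in all 10 libraries. DNAJB1, a cytosolic co-chaperone, rose in all libraries (1.07 ± 0.14, adjusted p = 1.09e-07) and HSPA1B rose by 0.66, but HSPH1 fell (-0.42), and the median of 17 heat shock genes was 0.02. Oxidative stress targets of NRF2 had HMOX1 (0.63) and SRXN1 (0.56) higher of 19 tested, and a median of 0.14. HMOX1 did not pass in 11 of 17 other fits, HSPH1 in 11 and RBL2 in 10.

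Among targets of the aryl hydrocarbon receptor, 2 of 9 tested rose, and both are drug-metabolising enzymes. CYP1A1 had 14.9, 12.5, 13.6, 17.3 and 14.1 CPM in Medium 2 and 5.47, 2.07, 3.76, 1.82 and 1.16 CPM in Medium 1, a rise of 2.31 ± 0.28 (adjusted p = 2.43e-08). CYP1B1 had 23.9, 21.7, 23.6, 23.5 and 35.1 CPM in Medium 2 against 4.48, 11.9, 11.8, 8.20 and 8.69 CPM in Medium 1, a rise of 1.51 ± 0.28 (adjusted p = 0.000133). Both were low in Medium 1 and separated by medium in all libraries. All 9 had a log2 fold change above 0, with a median of 0.34, but the repressor AHRR (0.80, adjusted p = 0.159), TIPARP (0.34, adjusted p = 0.342) and the receptor AHR itself (-0.10, adjusted p = 0.829) did not pass. Genes that make, carry or sense kynurenic acid did not move past the threshold in either direction, 0 of 11 tested, with 0 at an unadjusted p under 0.05, 0 by DESeq2 and a median of -0.03. Beside the 8.56% of all tested genes that passed, 0 of 11 says little about these genes, which ranged from -1.08 to 0.30. They included the aminotransferases AADAT, GOT2, CCBL1 and CCBL2 and the transporters SLC7A5 and SLC7A8. GPR35 was at 0 in all 10 libraries.

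Ribosomal protein RNAs were the largest group to rise, each by a small step. Of 79 tested cytosolic ribosomal protein genes, 43 (54.4%) were higher in Medium 2, against 4.3% of all tested genes. Among all genes in the shortest quartile of span, described below, and at or above the median level, 15.7% were higher. None of the 79 was lower and 77 had a log2 fold change above 0. The median was 0.36. RPLP0, a protein of the large subunit stalk, had 2408, 3064, 2734, 2535 and 2873 CPM in Medium 2 and 1905, 1774, 1893, 1835 and 2004 CPM in Medium 1 (0.53 ± 0.09, adjusted p = 5.01e-05), and RPS24, of the small subunit, rose by 0.55 (adjusted p = 0.000299). Summed, these RNAs took 9.56% to 11.5% of counts in Medium 2 libraries and 8.77% to 9.36% in Medium 1 libraries. The count was 26 without either of the Medium 2 libraries D7 and G7, and 42 with RLE scaling. RPL28 (-0.46, adjusted p = 0.119) and RPL29 (-0.12, adjusted p = 0.697) were the 2 members below 0. Many of these genes have processed pseudogenes, and how such reads were shared is not given in the sources used here.

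Nuclear-encoded subunits of oxidative phosphorylation showed a similar small shift, with 9 of 37 tested (24.3%) higher, none lower and a median of 0.25. Of all tested genes 4.3% were higher and 4.26% lower. Among all genes in the shortest quartile of span and at or above the median level, 15.7% were higher. ATP5G2, of the ATP synthase ring, had 308, 393, 390, 329 and 314 CPM in Medium 2 against 234, 257, 257, 231 and 264 CPM in Medium 1 (0.48, adjusted p = 0.000524), and ATP5G3 (0.47), NDUFB8 (0.39) and UQCRH (0.37) were higher as well. The count was 4 without the Medium 1 library A4, 5 without the Medium 2 library D7 and 4 without the Medium 2 library G7. Of 28 S phase genes 7 rose, with a median of 0.14, among them the cell cycle phosphatase CDC25A (0.78, adjusted p = 1.79e-05), the helicase subunit MCM2 (0.69) and the nucleotide-making enzyme subunit RRM2 (0.41), while the polymerase subunit POLE fell (-0.65). Of 30 mitosis genes AURKA, CDCA8 and BUB3 passed as higher and CENPE and MKI67 as lower, with a median of -0.01. Of 27 ribosome biogenesis genes NPM1 (0.41, adjusted p = 0.000129) and UTP15 (0.46) rose. The shares higher, 10% of mitosis and 7.41% of ribosome biogenesis genes, are not far from that of all tested genes. Of 17 other fits, BUB3 did not pass in 15, MKI67 in 8, CENPE in 7 and CDCA8 in 6, and the mitosis count was 1 higher and 0 lower after thinning or without the Medium 1 library H3.

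**Figure D2:**
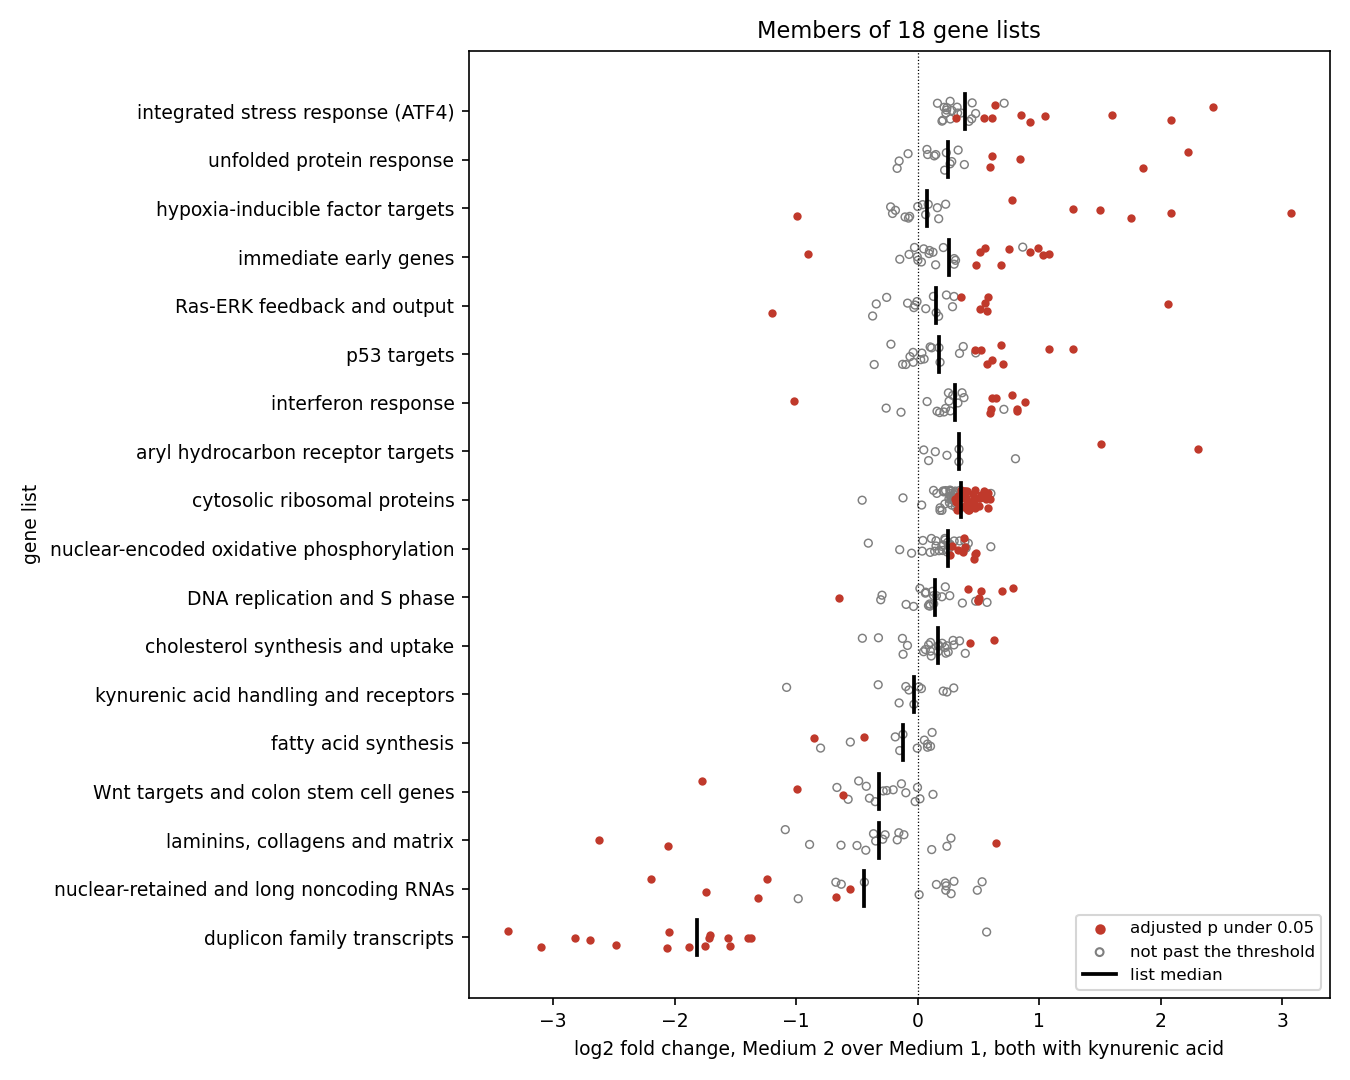
Log2 fold changes, Medium 2 over Medium 1 with kynurenic acid, of the tested members of 18 gene lists, with a point per gene (filled when the adjusted p is under 0.05) and a bar at each list median. Ribosomal proteins cluster just above 0 around 0.36, while stress and hypoxia lists have a few genes beyond 2 and duplicon transcripts lie around -1.81.

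Few lipid synthesis genes passed the test, beside 8.56% of all tested genes that passed. MSMO1, an enzyme of cholesterol synthesis, rose by 0.43 on a list of 25 cholesterol genes with a median of 0.17, whereas HMGCS1 did not pass (0.24, adjusted p = 0.177). ACACA, which makes malonyl-CoA for fatty acids, had 107, 83.4, 62.3, 69.6 and 43.7 CPM in Medium 2 against 111, 146, 137, 128 and 140.2 CPM in Medium 1, and fell (-0.86 ± 0.16, adjusted p = 0.00029), as did ELOVL6 (-0.45), with none of 13 fatty acid genes higher and a median of -0.12. Of 25 autophagy and lysosome genes only the initiating kinase ULK1 passed, and it fell (-0.83), beside a list median of 0.03. None of 11 colonic epithelial genes, 6 genes of the epithelial-mesenchymal transition and 6 small nuclear and nucleolar RNAs passed the test, with 0, 1 and 2 of them at an unadjusted p under 0.05, and DESeq2 called 0, 0 and 1. COL1A1 fell (-1.22, adjusted p = 0.0477) on the list of other cell types, at 3.65 ± 1.94 CPM in Medium 2 and 8.87 ± 3.21 CPM in Medium 1. Of 17 other fits, ELOVL6 did not pass in 12 and COL1A1 in 10.

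Some matrix, Wnt and TGF-beta pathway genes were among the falls, beside 4.26% of all tested genes that fell. LAMA5, a laminin chain of basement membranes, had 10.6, 9.85, 12.2, 7.85 and 8.03 CPM in Medium 2 and 42.3, 42.4, 25.2, 48.3 and 41.7 CPM in Medium 1 (-2.05 ± 0.24, adjusted p = 1.18e-08). COL27A1, a fibrillar collagen, had 2.12, 3.28, 2.86, 3.14 and 3.01 CPM in Medium 2 against 12.4, 16, 19.9, 23.2 and 18.5 CPM in Medium 1 (-2.62 ± 0.36, adjusted p = 6.69e-07). Both genes were separated by medium in every library, and these were the 2 of 18 tested matrix genes that fell, while the proteoglycan SDC4 rose by 0.65 and the median was -0.32. The part of the fibroblast marker COL1A1, given above, in this group was not tested. AXIN2, a negative regulator and target of Wnt signals, had 3.71, 1.97, 3.58, 4.19 and 4.52 CPM in Medium 2 and 11.9, 8.28, 11.3, 12.8 and 19.1 CPM in Medium 1 (-1.77 ± 0.34, adjusted p = 0.000364). RNF43, which removes Wnt receptors, fell (-0.995, adjusted p = 0.00123), and so did the Wnt transcription factor TCF7 (-0.62, adjusted p = 0.04), though TCF7 did not pass in 10 of 17 other fits. These were 3 of 18 tested Wnt and stem cell genes, of which none rose and 2 had a log2 fold change above 0, with a median of -0.32. SMAD7, the inhibitor of TGF-beta receptors, had 2.12, 5.25, 2.86, 3.14 and 5.02 CPM in Medium 2 against 16.4, 11.4, 23.6, 20.05 and 22 CPM in Medium 1 (-2.32 ± 0.36, adjusted p = 8e-06). The BMP target ID1 (-0.69) and the ubiquitin ligase SMURF2 (-0.45) fell as well, on a list of 15 tested genes with a median of -0.24.

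Several long noncoding and nuclear RNAs fell. NEAT1, the scaffold of nuclear paraspeckles, had 8.49, 3.94, 10.0, 11 and 15.6 CPM in Medium 2 against 50.8, 44, 39.2, 69.3 and 24.9 CPM in Medium 1, a fall of -2.19 ± 0.29 (adjusted p = 1.98e-07) without overlap. The snoRNA host genes SNHG12 (-1.31), SNHG3 (-1.24), GAS5 (-0.67) and SNHG1 (-0.56) fell, as did LINC00342 (-1.74), making 6 of 19 tested with none higher and a median of -0.44. MALAT1, another abundant nuclear RNA, had a log2 fold change of -0.67 and did not pass (adjusted p = 0.0563). The labels name cytoplasmic RNA as the molecule, and the nuclear RNAs above were counted all the same. PNISR, a splicing-related protein, had 199, 153, 158, 189 and 299 CPM in Medium 2 against 366, 437, 394, 435 and 396 CPM in Medium 1 (-1.02 ± 0.16, adjusted p = 6.07e-06), while the splicing kinases CLK1 (1.07 ± 0.18, adjusted p = 3.39e-05) and CLK4 (1.02) rose. Of 27 splicing kinases and SR proteins, 3 rose and 2 fell. Transcripts of duplicated gene families made up several of the largest falls, with GOLGA8A at -3.10 and GOLGA8B, at 5.84, 4.59, 2.86, 4.71 and 3.51 CPM in Medium 2 against 31.4, 36.7, 25.2, 33.3 and 29 CPM in Medium 1, at -2.82 ± 0.35. Of 16 tested members of such families 15 fell and none rose, with a median of -1.81, against 4.26% of all tested genes that fell. This list was chosen with earlier results of these data known, so the count is no independent support. In untreated spheroids 14 of its members passed as lower, with a median of -2.13. Near-identical copies make the gene these reads came from uncertain, as for NPIPA5 (-2.48) and the overlapping PILRB (-2.70) and STAG3L5P-PVRIG2P-PILRB (-2.20). Other large changes outside the lists were PRR15, which rose by 1.69 (adjusted p = 0.00631), B4GALNT4, a glycosyltransferase, which fell (-2.24, adjusted p = 0.000116), and VPS13A, a lipid transfer protein, which fell (-1.79, adjusted p = 6.69e-07). The small nuclear RNA RNU4ATAC lies within CLASP1, so its rise of 1.62 (adjusted p = 0.0389) is uncertain.

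**Figure D3:**
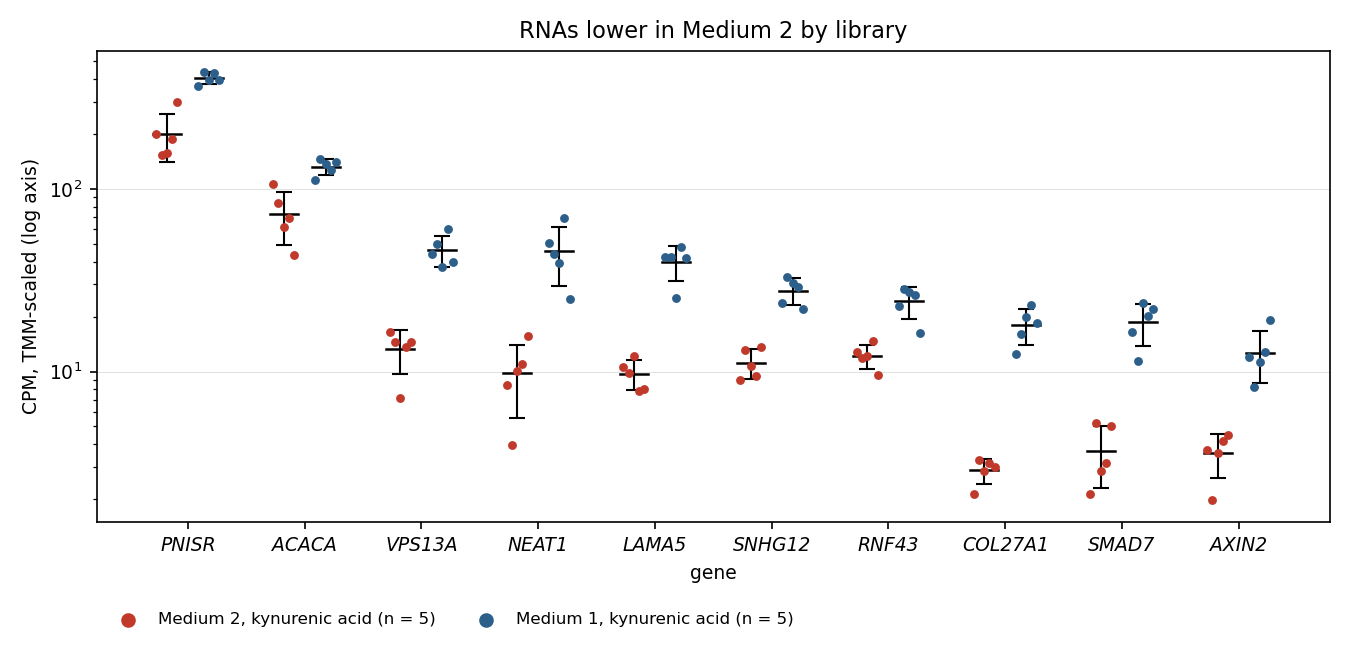
CPM on a log axis for 10 genes that fell in Medium 2, with a point per library, red for Medium 2 and blue for Medium 1, and black bars for mean ± SD (n = 5). LAMA5 lies at 7.85 to 12.2 CPM in Medium 2 and 25.2 to 48.3 CPM in Medium 1, and no gene drawn has overlapping groups.

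The genes that fell were longer than those that rose. By the RefSeq annotation, the median span from start to end was 12.6 kb for genes higher in Medium 2 and 58.4 kb for genes lower in Medium 2, against 31.2 kb for all tested genes. When tested genes were split into quartiles of span, the share that rose was 8.74% in the shortest, then 4.73%, 2.46% and 1.48% in the longest. The share that fell was 2.31%, 3.51%, 3.83% and 7.41% in the same order. The median log2 fold change of each quartile was 0.12, 0.06, -0.01 and -0.15 from shortest to longest. The level of the genes also differed, with a median of 125.8 CPM for genes that rose and 23.8 CPM for genes that fell, and the order of the quartile medians was the same among genes above and below the median level. In untreated spheroids the quartile medians were 0.07, 0.03, -0.01 and -0.09. Noncoding genes and pseudogenes made up 2.9% of genes that rose, 6.36% of genes that fell and 3.52% of all matched genes.

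**Figure D4:**
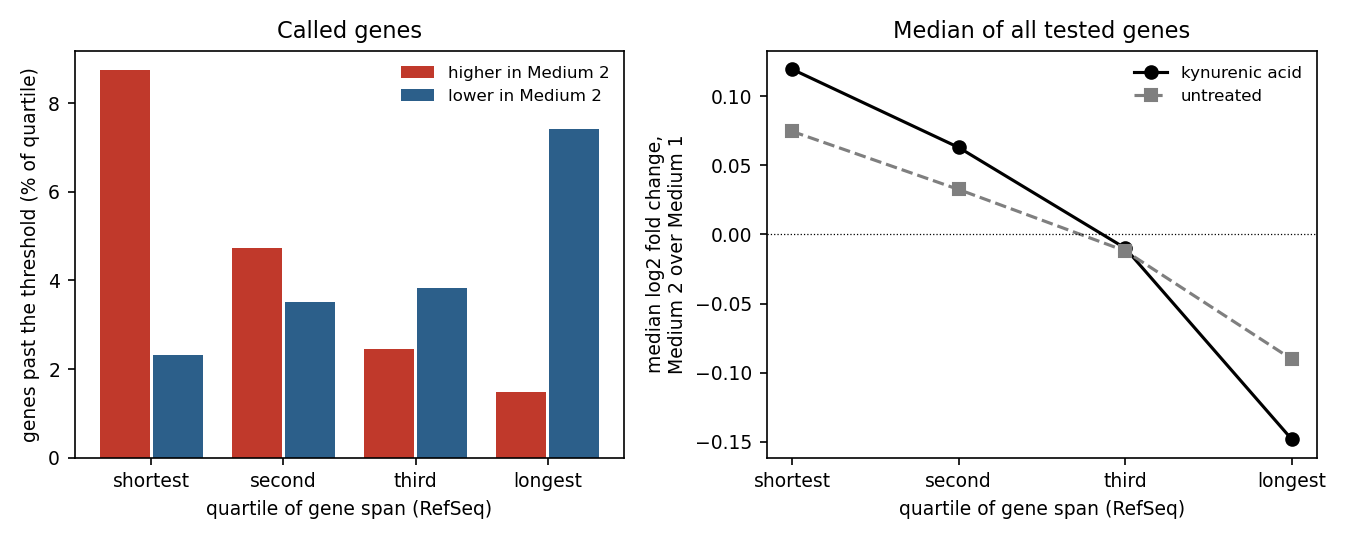
Left, the percentage of genes past the threshold in each quartile of gene span, red for higher and blue for lower in Medium 2; right, the median log2 fold change of all tested genes per quartile with kynurenic acid (circles) and without treatment (squares). Under kynurenic acid the share of genes that rose falls to 1.48% in the longest quartile, while the share that fell is highest there at 7.41%.

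The medium contrast under kynurenic acid was then set against the same contrast in untreated and in kynurenine-exposed spheroids, which use other libraries. In untreated spheroids 304 genes (2.69%) were higher and 417 (3.69%) lower in Medium 2, 6.38% together, and 384 genes passed in both, which is 39.7% of the genes called under kynurenic acid and 53.3% of those called in untreated spheroids. No gene passed in opposite directions. Of the 486 genes higher under kynurenic acid 467 were also above 0 in untreated spheroids, and of the 481 lower 461 were below 0. The genes higher in untreated spheroids averaged 6.63 to 6.73 log2 CPM in the kynurenic acid libraries of Medium 2 and 6.07 to 6.21 in those of Medium 1, and the lower ones 4.19 to 4.28 and 4.90 to 5.09, so the 2 media were apart in each library. With kynurenine, 421 genes (3.73%) were higher and 484 (4.28%) lower, 8.01% together, and 394 were shared, 40.7% of the kynurenic acid genes and 43.5% of the kynurenine genes, again with none opposite. The genes called higher with kynurenine, which were chosen on neither other group, had a median log2 fold change of 0.40 under kynurenic acid and 0.35 without treatment, and those called lower -0.56 and -0.62. The kynurenine group of Medium 2 holds a library that stands apart from its group, well A7. Without it and a butyrate library that also stands apart (well B2), kynurenine called 431 higher and 461 lower, and 464 genes were shared, 39.4% of the kynurenic acid genes and 52% of the kynurenine genes, with none opposite.

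No gene passed a test of the difference itself. The medium contrast under kynurenic acid minus that in untreated spheroids called 0 genes (0%), with 523 at an unadjusted p under 0.05 and a smallest adjusted p of 0.280. Against kynurenine it called 0 (0%), with 478 unadjusted and a smallest adjusted p of 0.552, and against the mean of the other 5 treatments 0 (0%), with 625 and 0.286. The median standard error of the first difference was 0.3 on the log2 scale, against 0.212 for the medium contrast itself. With DESeq2, 3 genes passed as lower in the difference from untreated spheroids, namely EGR1, TIPARP and C12orf57, and EGR1 passed alone with a plate row term or with only the 4 groups fitted.

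EGR1 had the smallest p of the difference. In untreated spheroids it had 299, 274, 399.7, 318 and 254 CPM in Medium 2 and 83.4, 121, 81.3, 89.6 and 88.2 CPM in Medium 1, so that the Medium 2 libraries without treatment all lay above those with kynurenic acid given earlier. Its medium contrast was 0.68 under kynurenic acid, 1.73 in untreated spheroids and 0.76 under kynurenine. The difference of the first pair was -1.05 with a 95% interval of -1.51 to -0.59 and an adjusted p of 0.280 (0.0235 with the plate row term, 0.00782 with only the 4 groups, 6.66e-05 with DESeq2). TIPARP, a target of the aryl hydrocarbon receptor that modifies proteins with ADP-ribose, had 79.04, 70.9, 73.7, 69.1 and 54.2 CPM in Medium 2 with kynurenic acid and 45.3, 44, 59, 51 and 75.3 CPM in Medium 1 with it, which overlap. Untreated, it had 73.4, 92.3, 122, 110.3 and 94.0 CPM in Medium 2 and 41.9, 31.7, 32.4, 32.7 and 48.2 CPM in Medium 1, which do not. The difference was -1.05 with an interval of -1.65 to -0.45 and an adjusted p of 0.890 (0.0324 with DESeq2). Under kynurenine the medium contrast of TIPARP was -0.41. Against the mean of the other 5 treatments the difference was -0.23 for EGR1 (adjusted p = 0.922) and -0.25 for TIPARP (adjusted p = 0.936).

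Other genes are named here after their values were seen. FOSL2, an AP-1 subunit, had 40.8, 44, 52.3, 45.5 and 36.7 CPM in Medium 2 and 27.9, 35.2, 23.6, 46 and 56.2 CPM in Medium 1 with kynurenic acid, and the groups overlap. Without treatment it had 61.1, 76.7, 61.6, 58.8 and 74.8 CPM in Medium 2 and 27.3, 30.3, 23.2, 26.6 and 30.3 CPM in Medium 1, with a difference of -1.06 (adjusted p = 0.874). Its medium contrast was 0.21 under kynurenic acid and 0.07 under kynurenine. The difference from the mean of the other 5 treatments was -0.33 (adjusted p = 0.909). TNFAIP3, a brake on NF-kB, had a medium contrast of -0.44 (adjusted p = 0.395) under kynurenic acid and 1.07 (adjusted p = 0.0101) without treatment, a difference of -1.51. With kynurenine its contrast was 1.28. CRYM, which binds thyroid hormone, had 15.4, 13.1, 24.3, 14.1 and 14.6 CPM in Medium 2 and 6.97, 7.24, 5.90, 8.20 and 6.37 CPM in Medium 1 with kynurenic acid (1.21, adjusted p = 0.000762), while its contrast was 0.18 without treatment and -0.21 with kynurenine. Across the immediate early list, 22 of 26 differences from untreated spheroids were below 0 with a median of -0.39, against 0.02 for all tested genes. Of these 26, 7 had an unadjusted p under 0.05, against 4.63% of all tested genes. Of 37 oxidative phosphorylation genes 7 were below 0, with a median of 0.15. Members of a list were read from the same libraries and are not separate observations, and no test was made over a list.

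The largest stress rises were not resolved from those of untreated spheroids. For HERPUD1 the difference was -0.09 with an interval of -0.55 to 0.36, for DDIT3 0.69 (0.09 to 1.29, adjusted p = 0.998), for DDIT4 -0.84 (-1.49 to -0.19, adjusted p = 0.998) and for CYP1A1 -0.52 (-1.43 to 0.39). DDIT4 had 453, 367, 613, 503 and 371 CPM in Medium 2 and 37, 43.4, 45.2, 59.9 and 56.9 CPM in Medium 1 without treatment. These intervals show the size that each difference may have.

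**Figure D5:**
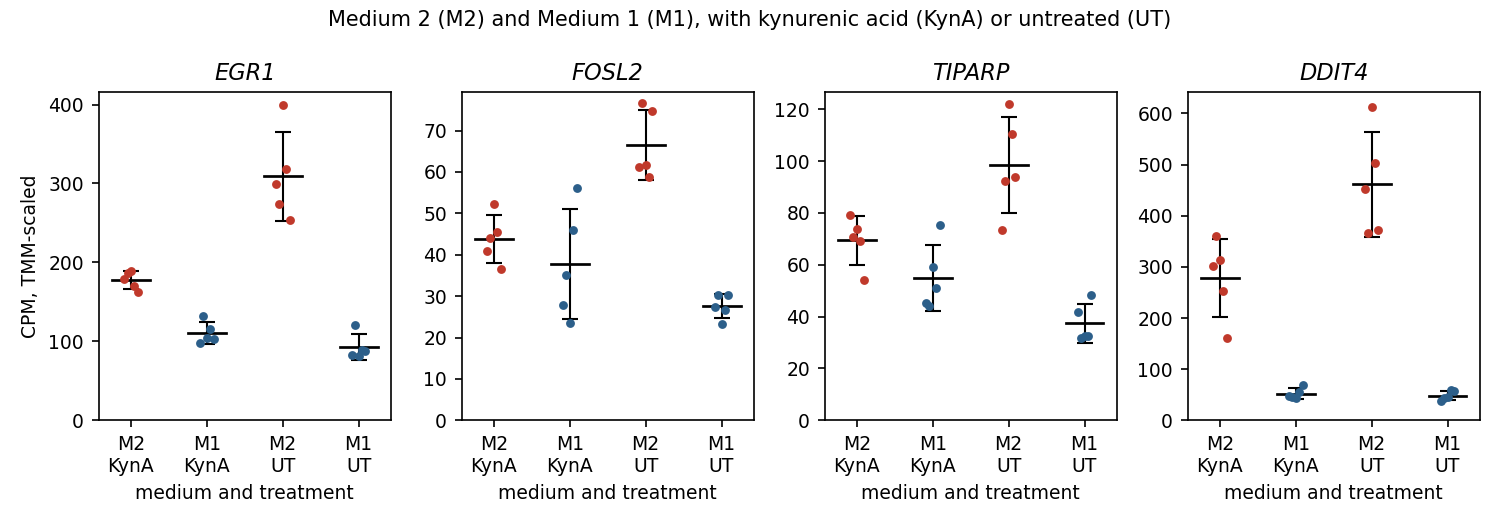
CPM per library of EGR1, FOSL2, TIPARP and DDIT4 in Medium 2 and Medium 1 with kynurenic acid (KynA) and then untreated (UT), red for Medium 2 and blue for Medium 1, with bars for mean ± SD (n = 5 each). In EGR1 the Medium 2 libraries lie at 163 to 189.7 CPM with kynurenic acid and at 254 to 399.7 CPM untreated, while those of Medium 1 overlap between treatments.

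Within each medium, the test of kynurenic acid against no treatment called few genes or none, in comparisons that share libraries with those above. In Medium 1 it called 0 genes (0%), with 369 at an unadjusted p under 0.05, and DESeq2 also called 0. In Medium 2 it called 0 higher and 2 lower (0.0177%), EGR1 (-0.80 ± 0.16, adjusted p = 0.0341) and SEPP1, a secreted selenium carrier (-1.53 ± 0.31, adjusted p = 0.0341), with 901 at an unadjusted p under 0.05. DESeq2 called 21 higher and 26 lower there, with adjusted p-values for 4932 genes against 11298 in the main fit. The 2 lower genes became 0 without any 1 of the Medium 2 libraries C7, D7, E7, F7 and G7 with kynurenic acid or G4 and A5 untreated, and 1 without C5 untreated.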

How the data were processed

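RNA of HCT116 spheroids was read with a 3'-end kit with unique molecular identifiers, per the labels' protocols. The table deposited by the authors holds estimated counts per gene for 29744 genes in 60 columns. The submitters' processing notes name Salmon 1.5.2, STAR, UMI-tools 1.1.2, FastQC 0.11.9 and cutadapt 3.4, and GRCh38, without order or settings. Which annotation and strand setting were used, and how multimapped reads were shared, is not given in the sources used here. Because such a kit reads transcript ends, a count does not grow with transcript length.

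Groups came from column names, which match the sample titles by medium and treatment. Another label gives all 60 samples the same entry, untreated and nutrient-rich, which goes against the titles and was not used. The estimated counts (10.1% of values not whole) were rounded. Genes were kept by filterByExpr (minimum count 10, minimum total 15), which kept 99.62% of counts, and libraries were scaled by TMM. A model with 12 group means was fitted to all 60 libraries with the quasi-likelihood functions of edgeR 4.0.16 in R 4.3.3 (48 residual degrees of freedom, common dispersion 0.0316), with two-sided tests, Benjamini-Hochberg adjustment over all tested genes and a threshold of 0.05. Standard errors are the log2 fold change over the square root of F. The model was tested on simulated data. The titles call the libraries biological replicates without naming cultures or days, so p-values reflect only the spread between these libraries, which may be technical. All pairs within a group differed beyond sampling noise.

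Alternatives were RLE scaling, no filter, a plate row term, leaving out a butyrate and a kynurenine library that stand apart in their groups (wells B2 and A7), thinning to 1346135 counts, only the groups compared, DESeq2 1.42.0, and leaving out each library. The members and the 35 gene lists were chosen with earlier results of these data known. The table held 811 of 853 list entries under the same symbol, 37 under an older one, and lacked 5. Genes named in the text are the 12 largest rises and 12 largest falls that passed with a mean of at least 10 CPM in either group and no overlap of libraries, genes listed in advance, up to 4 passing members per list, all members of counts of 5 or fewer, and others where said. RefSeq spans were found for 10303 tested genes under the same symbol and for 767 under an older one, and 228 had none. Some genes that this rule names are left out of the text.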

Additional observations from a re-analysis of the deposited data

Results flagged for a closer look

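In groups of 5 libraries, a library was marked when its gap to the nearest other exceeded 0.71 of the group's range. Of 220 groups tested for the 110 named genes 12 were marked, where chance marks about 1 in 20. The Medium 2 library G7 was high for HSPA5 (1742 CPM, others 1374 to 1422), CYP1B1 (35.1 CPM, others 21.7 to 23.9), SRXN1 (277 CPM, others 201 to 209) and COL1A1 (7.03 CPM, others 2.15 to 3.28). The Medium 2 library C7 was high for NBPF15 (32.4 CPM, others 21.6 to 24.3) and low for NDUFB8 (303 CPM, others 370 to 374). The Medium 2 library D7 was low for AHRR (4.59 CPM, others 7.85 to 9.04) and SPRED1 (101 CPM, others 116 to 118), and F7 was high for BTG2 (31.9 CPM, others 24.3 to 26.3). In Medium 1, A4 was high for SDC4 (173 CPM, others 121 to 132) and COL1A1 (14.5 CPM, others 6.44 to 8.20), and G3 was low for LAMA5 (25.2 CPM, others 41.7 to 48.3).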

How the results depend on the processing

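No paired analysis was possible because the columns carry a plate well and no replicate number. The medium contrast under kynurenic acid gave 326 higher and 396 lower genes without a filter, 365 and 367 after thinning, 386 and 382 with a plate row term, 438 and 521 with RLE scaling, 451 and 475 with only the 2 groups, 576 and 533 with DESeq2, and 583 and 594 without the libraries of wells B2 and A7. Leaving out each library gave 307 to 497 higher and 334 to 457 lower. Of 104 named genes that passed, 78 passed in every one of the 7 alternatives and 10 fits without a library, and 26 were lost in at least 1 of them. The call was lost in 15 of these 17 fits for BUB3, 14 for LDHB, 12 for TPI1 and ELOVL6, 11 for HMOX1 and HSPH1, 10 for RBL2, TCF7 and COL1A1, 9 for SDF2L1 and GAPDH, 8 for RNU4ATAC, MKI67 and SRPK1, 7 for CENPE and NARS, and 6 or fewer for the other 10. MYC, which did not pass, ranged over single left-out libraries between -0.0899 (without the Medium 1 library F3) and 0.37, and was -0.0327 without G3. The difference from untreated spheroids called 0 genes, but 1 lower with a plate row term, 1 lower with only the 4 groups and 3 lower with DESeq2. It called 0 whichever library was left out, as did the differences from kynurenine and from the mean of the other 5 treatments. That of HERPUD1 ranged between -0.178 and 0.0314 (without the Medium 1 library A4). The alternatives for kynurenic acid against no treatment were added after the data were seen, as was the kynurenine contrast without wells B2 and A7. In Medium 2 the 2 lower genes were 1 without a filter, 1 with a plate row term and 0 after thinning, only the 2 groups gave 3 lower (EGR1, HES1 and IFIT2, without SEPP1), DESeq2 called 21 higher and 26 lower, and leaving out each library gave 0 to 3. The cause was not tested. Depth limits genes of a few CPM, with medians of 1941031 counts per library in Medium 2 and 1830078 in Medium 1.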
